A study of Saccharomyces cerevisiae with 46 samples.

Results

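Among 20 evolved lines of budding yeast, 5 held reads over only part of the mitochondrial genome and 15 over the whole of it. The question was whether the nuclear genomes of these classes differed, and which mitochondrial stretches the 5 lines kept. The classes were chosen by measured values: a line was partial when fewer than 80 of the 86 mitochondrial bins of 1 kb had a deposited log2 copy ratio above -2 in its evolved sample. Lines A1, B3, C3, D1 and D3 met this rule, and the other 15 lines had 86 of 86 bins above it. All 20 non-evolved samples, those of the 5 partial lines included, also had 86 of 86 bins above the threshold.

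The series held 46 genomic DNA samples from overnight cultures of the W303 strain, in a study of chromosome gains in cells deficient for Bub3, a protein of the spindle assembly checkpoint. Each lettered line had 1 non-evolved and 1 evolved sample. The evolved_Bub3 samples and the wildtype LY1, which had a single sample per state, were not compared here. The labels give no genotype, ploidy or ancestry for the lines and do not say how the cultures were evolved, so each line counts as 1 replicate and p-values measure the spread between these lines only. BUB3 itself was well covered in some lines and depleted in others, in the classes compared here as in the series.

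The mitochondrial genome of yeast is a small circular-mapping molecule present in many copies per cell. It encodes a few subunits of the respiratory chain and of the ATP synthase, the ribosomal protein Var1, and the ribosomal and transfer RNAs of the organelle. Yeast survives on fermentable sugar without a working copy, and such cells form small, respiration-deficient colonies called petites. In one class of petite, called rho minus, most of the genome is deleted and the remaining stretch is repeated many times. Growth and respiration are not among the measurements analysed here.

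The 5 partial lines kept between 3 and 22 of the 86 mitochondrial bins, and only D1 and D3 kept the same ones. These values chose the lines, so they are a description without a test. A1 kept 3 bins, C3 kept 6, D1 and D3 kept 10 each, and B3 kept 22. Of the 86 bins, 52 were kept by none of the 5 lines, 21 by 1 line, 9 by 2 lines and 4 by 3 lines, and no bin was kept by 4 or 5. The threshold did not decide the classes: requiring 84 or 60 bins, or a log2 ratio above -1 or -3, gave the same 5 lines. The partial line nearest to the limit was B3 with 22 bins, and the whole lines nearest to it had all 86. The lowest retained bin stood at 1.71 in C3, and the highest bin below the threshold at -2.87, also in C3, both as log2 ratios relative to the nuclear baseline.

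**Figure D1:**
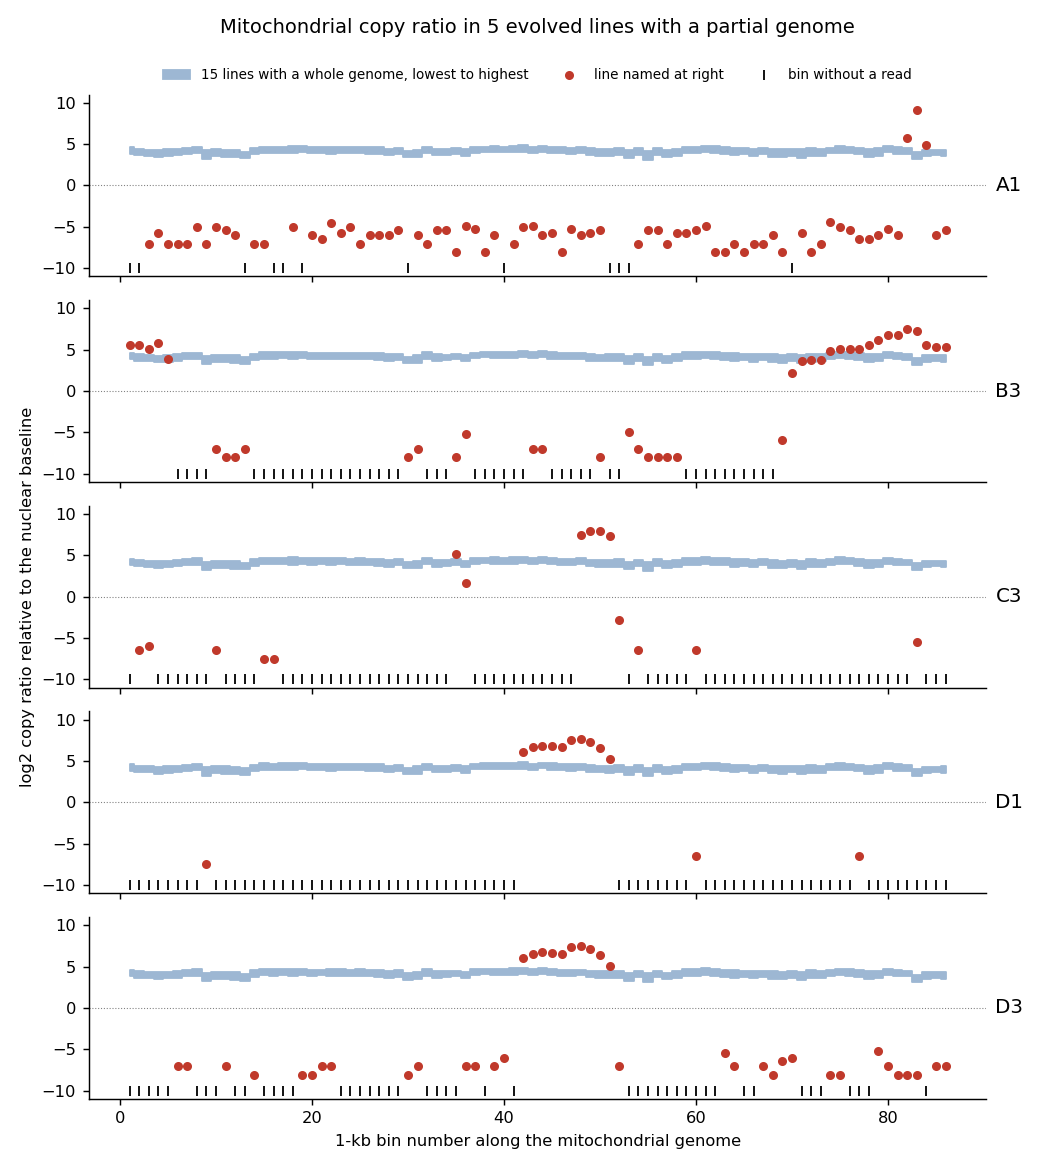
Log2 copy ratio of each 1-kb mitochondrial bin relative to the nuclear baseline in the 5 evolved lines with a partial genome (red points, 1 panel per line), with the range of the 15 evolved lines with a whole genome (blue band) and bins without a read (black ticks). Retained bins stand at or above the band in most positions, D1 and D3 share 1 profile, and A1 has scattered reads in 71 of its other 83 bins.

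A1 kept the fewest bins, at the highest copy number. Its 3 bins span positions 81001 to 84000 of the mitochondrial contig (R64 assembly numbering) and averaged 212-fold over the nuclear baseline. The middle bin, 82001 to 83000, reached 550-fold. The same 3 bins stood at 28.4-fold in the non-evolved sample of A1 and at 11.6-fold to 19.6-fold (median 14.97-fold) in the evolved lines with a whole genome. The gene table lists no gene in this stretch, so none of the 46 mitochondrial genes was kept. Replication origins, which are known to be part of many retained stretches in petites, are not listed in the table used here.

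B3 kept the longest stretch, in 2 pieces that join across the ends of the contig. The pieces run from 69001 to 85779 and from 1 to 5000, and averaged 57.5-fold and 39.8-fold. The copy number was uneven, from 4.73-fold in the lowest retained bin to 178-fold in the bin 81001 to 82000. All 3 bins kept by A1 lie within the stretch of B3. B3 held 16 mitochondrial genes whole, the most of any partial line. Among them were COX2 (73758 to 74513) and COX3 (79213 to 80022), which encode subunits of cytochrome c oxidase, and RPM1 (85295 to 85777), the RNA subunit of mitochondrial RNase P. The others were 12 of the 24 tRNA genes and the reading frame Q0255. The tRNA genes were tP(UGG)Q, tS(GCU)Q1, tR(ACG)Q2, tA(UGC)Q, tI(GAU)Q, tY(GUA)Q, tN(GUU)Q, tM(CAU)Q1, tF(GAA)Q, tT(UAG)Q2, tV(UAC)Q and tM(CAU)Q2.

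C3 kept 2 separate stretches at unequal copy number. The larger, 47001 to 51000, averaged 207-fold and holds VAR1 (48901 to 50097), which encodes a protein of the mitochondrial small ribosomal subunit, and the serine tRNA gene tS(UGA)Q2. The smaller, 34001 to 36000, averaged 18.9-fold and holds the glutamate tRNA gene tE(UUC)Q. The smaller stretch carried 4.37% of the mitochondrial reads of C3, and the larger 95.6%.

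D1 and D3 kept the same 10 bins, 41001 to 51000, with the same uneven profile. The stretch averaged 118-fold in D1 and 107-fold in D3. Single bins ran from 36.9-fold to 198-fold in D1 and from 34.2-fold to 178-fold in D3, with the lowest value at 50001 to 51000 and the highest at 47001 to 48000 in both. Across the 10 bins the log2 levels of D1 and D3 had a Pearson's r of 0.9996, given as a description of bins that lie next to each other, and D1 exceeded D3 by 0.11 to 0.17. The stretch holds OLI1 (46723 to 46953), which encodes subunit 9 of the ATP synthase, VAR1 and tS(UGA)Q2 whole. It also holds 37.2% of COB (36540 to 43647), the cytochrome b gene, and 21.9% of BI4, a maturase encoded in a COB intron. All 4 bins of the larger stretch of C3 lie within it.

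The labels do not say how D1 and D3 relate. Their non-evolved samples both had the whole mitochondrial genome, at 14.6-fold and 13.99-fold. Their evolved nuclear read counts differed by a chi-square of 1.69 per degree of freedom. This was the lowest of the 190 pairs of evolved lines, of which the next had 1.74. Among the 21 pairs of evolved lines without a gained chromosome the values ran up to 2.267. D1 had 175 reads in its median bin, the fewest of the 7 evolved lines without a gain. How far the chi-square depends on read depth was not tested. The bin-by-bin deviations of D1 and D3 from the mean of the 20 lines had an r of -0.018 over 11726 nuclear bins, within the range of -0.12 to 0.06 over all pairs. They were counted as 2 samples because the labels give them as separate lines, and whether they come from separate cultures was not tested. No nuclear call was made with all lines, so leaving out D1 and D3 together had none to remove, and it added none. The differences between the classes did move. The difference in gains per line was then -0.47 in place of -0.87. The log2 difference was 0.42 in place of 0.60 for the BUB3 locus, and -0.17 in place of -0.37 for the ribosomal DNA.

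In none of the 5 lines did a retained stretch touch either of the 2 mitochondrial ribosomal RNA genes. Of the 8 genes for respiratory-chain subunits, ATP synthase subunits and Var1, A1 kept 0 whole, C3 kept 1, and B3, D1 and D3 kept 2 each. COX1, ATP6 and ATP8 were kept by none of the 5 lines.

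Outside the retained stretches, reads were few but not absent, and A1 differed from the other 4 lines. A1 had 315 reads spread over 71 of its 83 other bins, with at most 12 in a bin. B3 had 40 reads in 18 of 64 bins, C3 had 42 in 9 of 80, D1 had 5 in 3 of 76, and D3 had 64 in 30 of 76. Expressed as copy number, these bins averaged 0.0145-fold in A1 and between 0.00037-fold and 0.00315-fold in the other 4. In a bulk culture, fewer cells with a stretch of DNA and fewer copies of it per cell cannot be told apart. Whether these few reads came from the sampled culture at all was not tested.

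The amount of mitochondrial DNA, averaged over all 86 bins, was lower in 3 of the 5 partial lines than in every whole line. In the evolved samples it was 7.40-fold in A1, 13.7-fold in B3, 10.1-fold in C3, 13.7-fold in D1 and 12.4-fold in D3. The 15 whole lines ranged from 13.6-fold to 23.1-fold with a median of 16.8-fold, so only B3 and D1 reached their lower edge. In the non-evolved samples the 5 lines were at 32.6-fold, 19.9-fold, 14.1-fold, 14.6-fold and 13.99-fold in the same order. All 5 partial lines were lower in the evolved than in the non-evolved sample, as were 9 of the 15 whole lines.

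Chromosome gains were the first nuclear comparison. No chromosome level passed the test of partial against whole lines. For each chromosome the level is its median bin on the log2 scale, relative to a sample baseline taken as the median over the 16 chromosome medians, and a level of 0.3 or more was called a gain. A1 had gained chromosome XI, B3 had gained chromosomes I and X, and C3, D1 and D3 had no gained chromosome. Partial lines thus carried 0.6 ± 0.89 gains (SD, n = 5) and whole lines 1.47 ± 1.13 (SD, n = 15), a difference of -0.87 with p = 0.173 in a two-sided exact permutation test over the 15504 ways to choose 5 of 20 lines. A gain was present in 2 of 5 partial and 11 of 15 whole lines (Fisher's exact test, p = 0.290).

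Chromosome II, the most often gained in the whole lines, was gained in 7 of 15 of them and in 0 of 5 partial lines. Its levels were 0.00 in A1, 0.10 in B3 and between -0.01 and 0.00 in the other 3, against a mean of 0.43 ± 0.44 (SD, n = 15). Chromosome III was gained in 5 of 15 and 0 of 5 lines, with levels of 0.02 to 0.07 in the partial lines. The class ranges overlapped for both chromosomes, and neither difference passed (adjusted p = 0.384 for both by exact permutation tests with Benjamini-Hochberg adjustment over 16 chromosomes). Every whole line with either gain had a BUB3 locus level (given below) under -0.5, as did only B3 among the partial lines. These counts therefore do not separate the class from the BUB3 level. Among lines with BUB3 above -0.5, the class difference was 0.007 for chromosome II and -0.002 for chromosome III. Before evolution B3 had gained both chromosomes, with levels of 0.89 and 0.92. Chromosome I stood at 1.29 in B3 and at 0.00 to 0.07 in the other 4 partial lines, and was gained in 4 of 15 whole lines. Chromosome X stood at 0.39 in B3, below the level of 1 that a full doubling gives, and was gained in 2 of 15 whole lines. Chromosome XI stood at 0.99 in A1 and at 1 in A4, the only whole line with this gain. The adjusted p-values of chromosomes I, X and XI were 0.896, 0.896 and 0.658 in the same exact permutation tests.

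Of the 16 chromosomes, 0 passed in the exact permutation tests (0%), and chromosome IV alone had an unadjusted p under 0.05. Its level was -0.03 ± 0.011 in the partial lines and -0.04 ± 0.0078 in the whole lines (SD, n = 5 and 15), a difference of 0.01 with exact permutation p = 0.012 and adjusted p = 0.192. Leaving out A1 brought the adjusted p of chromosome IV to 0.0454 in the exact permutation test, at a difference of 0.02. Chromosome IV was not gained in any of the 20 lines.

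**Figure D2:**
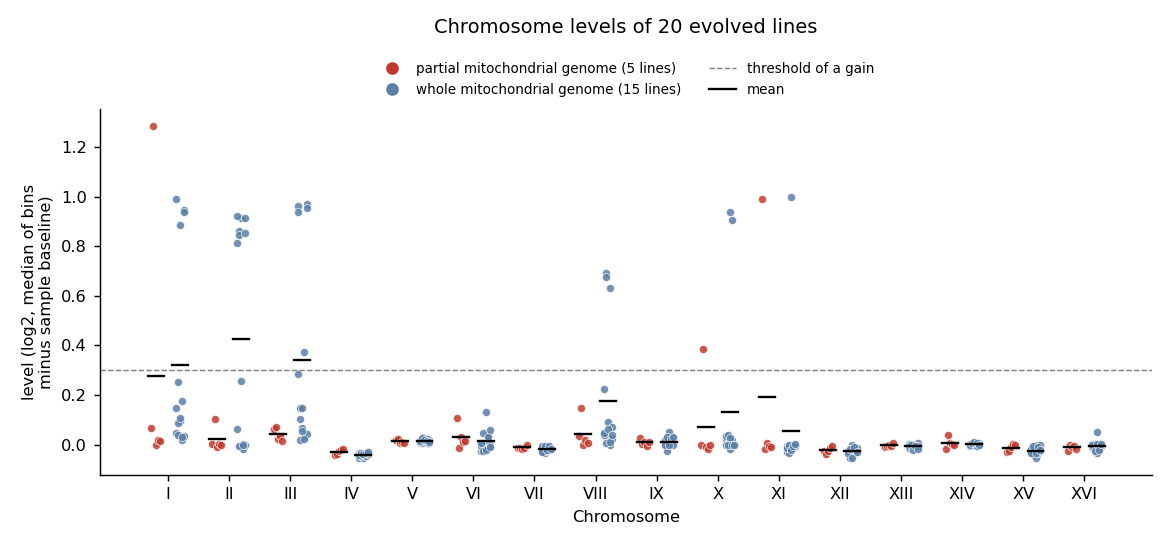
Level of each of the 16 nuclear chromosomes (log2, median of bins minus sample baseline) in the 5 evolved lines with a partial (red) and the 15 with a whole mitochondrial genome (blue). Black bars are means and the dashed line is the gain threshold of 0.3. Partial lines lie above it only for chromosomes I and X in B3 and chromosome XI in A1.

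Read depth at the BUB3 locus was higher on average in the partial lines, short of the threshold of the test. The level is a mean over 379001 to 381000. That span includes sequence on both sides of the gene, so the level is not the depth of the gene alone. The 2 bins that overlap BUB3 (chromosome XV, 379781 to 380806) stood at 0.01 in A1, 0.01 in C3, 0.11 in D1 and -0.03 in D3 relative to their chromosome, and at -1.29 in B3. In the whole lines they ran from -1.44 to 0.01 with a median of -1.09. BUB3 lay above -0.5 in 4 of 5 partial and 5 of 15 whole lines (Fisher's exact test, p = 0.127). The mean difference was 0.60, with p = 0.0531 in the exact permutation test and an adjusted p of 0.133 over the 5 locus values. Without B3, the only partial line with a low BUB3 level, the difference was 0.87 and the adjusted p of the exact permutation test 0.00516. Without D1 and D3 the difference was 0.42, with an adjusted p of 0.643 in the same test. In the non-evolved samples the difference was 0.57, with exact permutation p = 0.0942.

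Within the 9 lines with BUB3 above -0.5, few lines of either class had a gain. A gain was present in 1 of 4 partial lines, A1, and in 1 of 5 whole lines, A4. The mean difference in gains there was 0.05, with p = 1 in the exact permutation test over 126 assignments. A1 and A4 share more than chromosome XI: in the non-evolved state both had gained chromosomes XI and XII.

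The ribosomal DNA array, the tandem repeats on chromosome XII that encode the ribosomal RNAs, was lower on average in the partial lines, but not beyond the correction. The level given is the mean copy ratio over its 18 bins (451001 to 469000) on the log2 scale, of which 2 bins held 97.8% to 98.6% of the reads in the evolved samples. The values were 2.05 in A1, 2.56 in B3, 3.04 in C3, 2.17 in D1 and 1.94 in D3. The whole lines ran from 1.99 in A4 to 2.98 with a median of 2.79. A1, D1 and D3 were at the level of A4 or slightly above or below it, B3 lay inside the range of the whole lines, and C3 was the highest of the 20 lines.

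The means were 2.35 ± 0.45 (SD, n = 5) and 2.72 ± 0.25 (SD, n = 15). The difference of -0.37 had p = 0.0263 in the exact permutation test and an adjusted p of 0.132 over the 5 locus values. Single lines moved this value. Without C3 it was -0.54 with an adjusted p of 0.0168 in the exact permutation test, and without D1 and D3 it was -0.17 with an adjusted p of 0.643. With the median of the 18 bins in place of their mean it was -0.13 with an adjusted p of 0.628. Because 2 bins held nearly all reads, that median falls among bins with few reads. It therefore cannot decide whether the array differs. Within the 9 lines with BUB3 above -0.5 the difference in the mean-based level was -0.27, with exact permutation p = 0.357.

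Before evolution the classes overlapped. In the non-evolved samples the difference was 0.03, with exact permutation p = 0.876. The evolved minus non-evolved value was -1.85 in A1, -0.55 in D1 and -0.79 in D3, and 0.28 in B3 and 0.33 in C3. These are single samples per state, without a replicate check. The value of A1 starts from a non-evolved sample in which chromosome XII was itself gained. Relative to chromosome XII the change of A1 was -0.84. The whole line A4, with the same gains before evolution, changed by -1.61, and by -0.62 relative to chromosome XII. Changes in the whole lines ran from -1.61 in A4 to 0.32 with a median of -0.07. The change differed between the classes by -0.40, with exact permutation p = 0.165 and adjusted p = 0.431 over 3 changes. Without A1 it was -0.067, and without B3 or C3 it was -0.60 or -0.61. With the median of the bins, which falls among bins with few reads, it was -0.0052. The evolved value lay below the non-evolved one in 3 of 5 partial and 10 of 15 whole lines (Fisher's exact test, p = 1).

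The CUP1 array on chromosome VIII, which encodes the copper-binding metallothionein, had overlapping levels in the classes. Its levels were 0.15 in A1, 0.34 in B3, 0.25 in C3, 0.30 in D1 and 0.12 in D3, within a whole-line range of -0.34 to 0.87. The difference of -0.04 had exact permutation p = 0.806, and the difference in change between states was 0.00 with exact permutation p = 0.991. The spread was 0.09 among partial and 0.35 among whole lines (SD, n = 5 and 15), and the 3 whole lines with a gained chromosome VIII were the 3 with the highest CUP1 levels. These levels are relative to the sample baseline, so a gain of chromosome VIII itself raises them and widens the spread. Relative to chromosome VIII the 3 lines stood at 0.07 in A3, 0.19 in C4 and 0.18 in D4, below B2 at 0.36.

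The ENA genes on chromosome IV, which encode sodium pumps, lay between -2.59 and -2.38 in the partial and between -2.62 and -2.37 in the whole lines. The difference of -0.02 had exact permutation p = 0.530. In the non-evolved samples of the same lines the ENA genes were at -2.34 ± 0.056 (SD, n = 5) against -2.45 ± 0.082 (SD, n = 15). That difference of 0.11 had exact permutation p = 0.0105 and an adjusted p of 0.0526, and the ranges overlapped.

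**Figure D3:**
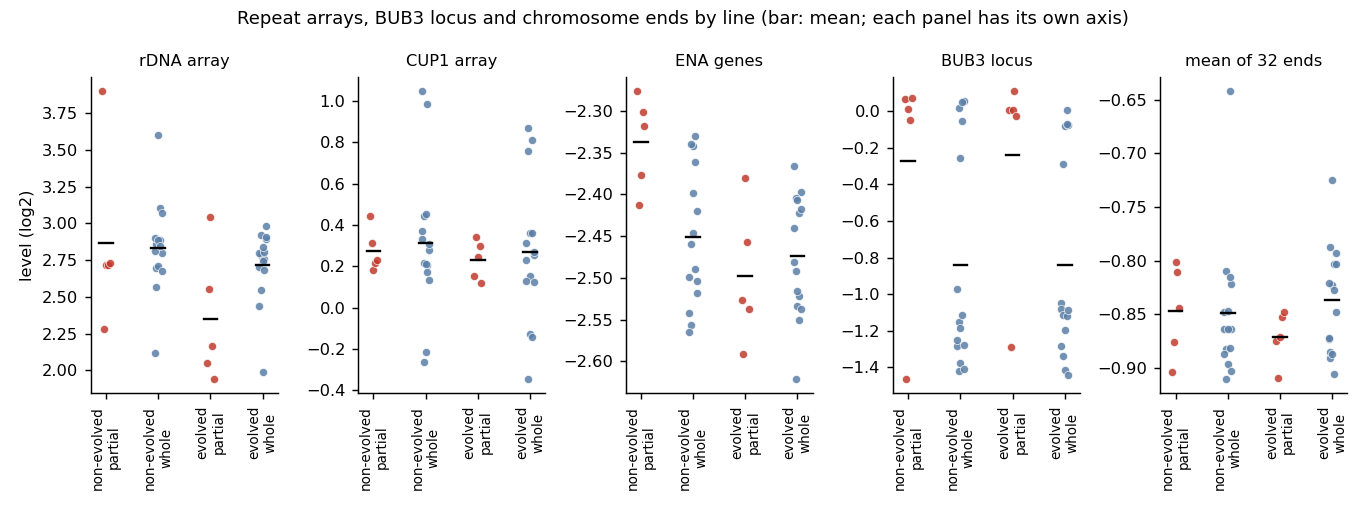
Levels (log2) of the rDNA and CUP1 arrays, the ENA genes, the BUB3 locus and the mean of 32 chromosome ends in non-evolved and evolved samples, by class (red, 5 partial lines; blue, 15 whole lines). Black bars are means, and each panel has its own axis. In the evolved samples 3 partial lines lie at 2.05, 2.17 and 1.94 for rDNA, near the lowest whole line at 1.99.

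Chromosome ends, which carry telomeric repeats and fast-changing gene families, were slightly lower in the partial lines at nearly every end, without any end passing. An end was measured by the mean copy ratio of the outer 20 kb, on the log2 scale and relative to the median of the chromosome. Of 32 ends, 31 were lower in the partial lines, 0 passed the adjustment in the exact permutation tests (0%), and 1 had an unadjusted p under 0.05. Within the 9 lines with BUB3 above -0.5, 13 of 32 had an unadjusted p under 0.05 and again 0 passed, with a lowest adjusted p of 0.0762 in the exact permutation tests. The ends of a sample share its depth and bias, so they are not independent. In the non-evolved samples 14 of 32 were lower. Among the 7 ends that hold YRF1 genes, the helicase genes of the subtelomeric Y' elements, 7 were lower, by 0.01 to 0.05.

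The mean over 32 ends was -0.87 in A1, -0.91 in B3, -0.87 in C3, -0.85 in D1 and -0.85 in D3, and -0.91 to -0.73 in the whole lines. The difference of -0.03 had exact permutation p = 0.155 and an adjusted p of 0.259. It was -0.019 with ends of 10 kb and -0.015 with the median of the bins. Within the 9 lines with BUB3 above -0.5 it was -0.07, with p = 0.0159 in the exact permutation test and an adjusted p of 0.0794 over the 5 locus values. The 3 ends with the lowest p were IX left, III left and XIII right. IX left stood at -4.24 ± 0.15 against -4.06 ± 0.13 (SD, n = 5 and 15), a difference of -0.18 with exact permutation p = 0.0213. At these levels IX left held few reads in both classes. III left and XIII right differed by -0.06 and -0.05, with exact permutation p = 0.0693 and 0.0917. The adjusted p of all 3 was 0.508.

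Single nuclear bins gave no call in any of the 3 comparisons. Each bin was taken relative to the median of its chromosome and tested with limma over 11810 bins with reads in at least 50% of the samples. In the evolved samples 0 bins were called at an adjusted p under 0.05 (0%), and 566 had an unadjusted p under 0.05 (4.79%). The lowest adjusted p was 0.287. For the change with evolution, fitted without pairing the samples of a line, 0 bins were called (0%), with 566 at an unadjusted p under 0.05 (4.79%). In the non-evolved samples 0 were called (0%), with 567 at an unadjusted p under 0.05 (4.8%). Of the 566 bins in the evolved samples, 325 were lower and 241 higher in the partial lines. The median standard error of a difference was 0.066 on the log2 scale.

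**Figure D4:**
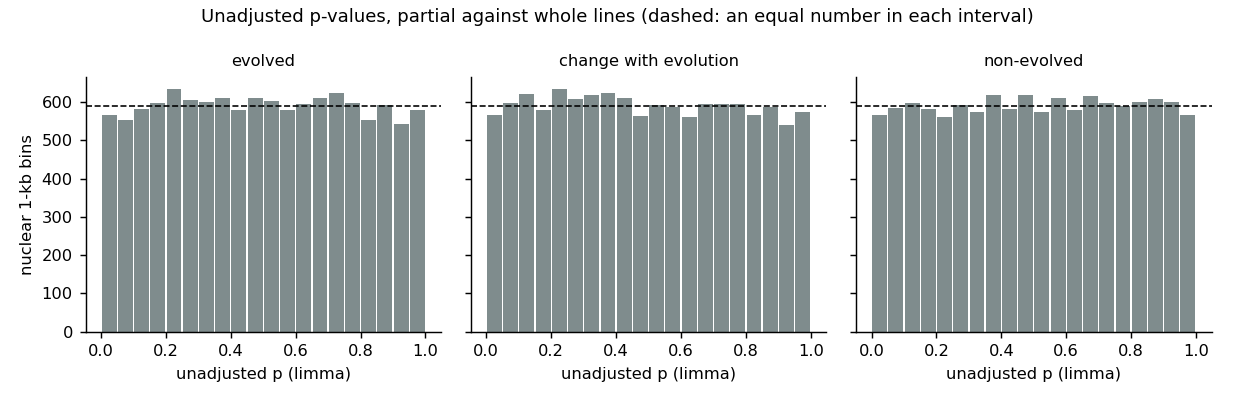
Number of nuclear 1-kb bins in each of 20 intervals of the unadjusted limma p, for partial against whole lines in the evolved samples, for the change with evolution, and in the non-evolved samples. The dashed line marks an equal number in each interval. Every interval holds between 539 and 633 bins, with 566, 566 and 567 in the lowest.

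The 9 bins with the lowest p were named whether called or not, and none was called. First was a bin in NTH1, the gene of neutral trehalase, at chromosome IV 452001 to 453000. It stood at 0.03 in A1, -0.17 in B3, 0.09 in C3, 0.02 in D1 and 0.03 in D3, and between 0.07 and 0.53 (median 0.34) in the whole lines. The difference was -0.32 ± 0.063 (SE), with a limma adjusted p of 0.287. The ranges overlapped only through C3. With a mean-variance trend and robust estimation the same bin was called, at an adjusted p of 0.0347 in limma, and in the non-evolved samples its difference was -0.03.

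Next was a bin at chromosome XIV 512001 to 513000, which overlaps NOP2, an rRNA methyltransferase gene, and ARP5, a subunit gene of the INO80 chromatin remodeler. It stood at 0.08 in A1, 0.20 in B3, 0.10 in C3, 0.21 in D1 and 0.17 in D3, and between -0.20 and 0.06 in the whole lines. The difference was 0.24 ± 0.050 (SE), with a limma adjusted p of 0.355. The classes did not overlap at this bin, as at 3 of 11810 bins (0.0254%). The difference was also 0.17 in the non-evolved samples, in which all lines had the whole mitochondrial genome.

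The next 7 bins had limma adjusted p-values between 0.665 and 0.866. Lower in the partial lines were a bin in PSD2, a phosphatidylserine decarboxylase gene (-0.30), a bin with the subtelomeric reading frames YFL067W and YFL066C on chromosome VI (-0.63), a nearby bin without a gene (-0.23) and a bin in YAR066W (-0.92). Higher were bins with JJJ2, which encodes a J-domain protein, and YNCJ0002C (0.21), with CYC3, the gene of cytochrome c heme lyase (0.20), and with AKL1, a protein kinase gene (0.22). The bin in YAR066W held few reads in both classes, with values from -6.52 to -4.08 in the partial and from -5.12 to -3.60 in the whole lines. At the subtelomeric bin of chromosome VI the partial lines differed among themselves, from -1.18 in B3 to 0.19 in C3.

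**Figure D5:**
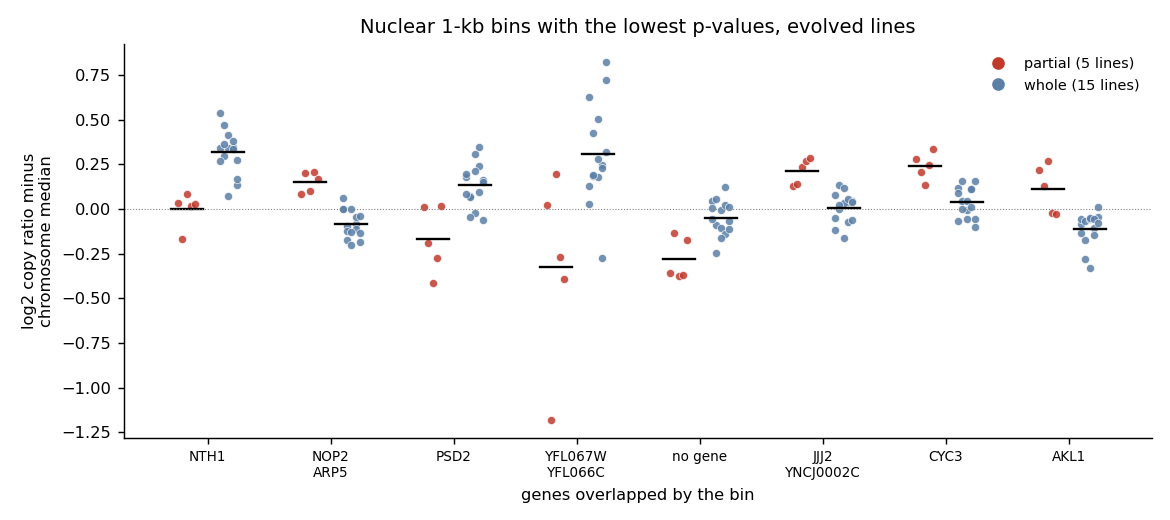
Log2 copy ratio minus chromosome median in the 5 partial (red) and 15 whole (blue) evolved lines at 8 of the 9 nuclear bins with the lowest p, labelled by the genes they overlap. Black bars are means. The bin in YAR066W, at -6.52 to -4.08 in the partial lines, is off this scale and left out. Only the bin with NOP2 and ARP5 shows classes without overlap.

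Nuclear genes that maintain or respond to the mitochondrial genome gave no called bin. Of 74 genes in 6 lists, covered by 195 gene-bin pairs, 0 had a called bin, and 6 pairs (3.08%) had an unadjusted limma p under 0.05 against 4.79% of all bins. The median difference over the 74 genes was 0.00, the same as over 5970 nuclear protein-coding genes, with 35 lower and 39 higher. Differences of single genes are means over the bins the gene overlaps, relative to its chromosome, in partial minus whole lines.

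Among 16 genes of mitochondrial DNA replication and packaging, 7 were lower and 9 higher. The largest differences were -0.07 for ACO1, the aconitase that is also needed to maintain mitochondrial DNA, and -0.06 for YHM2, a mitochondrial carrier that binds the DNA. The gene of the mitochondrial DNA polymerase, MIP1, stood at 0.01 in the partial and -0.02 in the whole lines. Among 9 recombination and repair genes the largest were -0.14 for NUC1, the mitochondrial nuclease, and 0.04 for CCE1, the cruciform-cutting endonuclease. NUC1 ran from -0.17 to 0.04 in the partial and from -0.08 to 0.31 in the whole lines, so the classes overlapped.

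Among 8 genes of mitochondrial transcription and RNA turnover the largest were -0.07 for MTF2, an mRNA processing factor, and 0.04 for MRS2, a magnesium channel needed for intron splicing. Among 13 genes of the retrograde response, by which the nucleus reacts to failing mitochondria, the largest were -0.15 for IDH2, a subunit of isocitrate dehydrogenase, and 0.09 for BMH1, a 14-3-3 protein. IDH2 had the lowest bin p of all 74 genes, with a limma p of 0.00217 unadjusted and 0.987 adjusted. Among 12 genes of deoxynucleotide supply the largest were 0.11 for RNR2, the small subunit of ribonucleotide reductase, and -0.05 for RNR3, its damage-inducible large subunit. Among 16 genes of protein import and membrane potential in cells without mitochondrial DNA the largest were -0.11 for TIM9, a chaperone of the intermembrane space, and 0.10 for ATP16, a subunit of the F1 ATPase.

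Read depth overlapped between the classes. The evolved samples of the partial lines held 2256015 to 3402341 reads and those of the whole lines 2400085 to 3770032, with medians of 252 and 216 reads in the median bin. The spread between neighbouring bins was 0.118 to 0.145 in the partial and 0.121 to 0.145 in the whole lines (SD, log2). Mitochondrial DNA made up 4.92% to 9.15% of the reads in the partial and 9.09% to 13.5% in the whole lines.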

How the data were processed

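Per the labels, tagmented genomic DNA was read from both ends on an Illumina sequencer. The deposited files give log2 copy ratios in 12165 bins of 1 kb per sample, of which 86 are mitochondrial. Trimmomatic 0.39, BWA 0.7.17, Picard 2.27.1 and GATK are named per the submitters' processing notes, and their settings are not given in the sources used here. Contig lengths in the file headers match the R64 assembly, which also supplied gene names. Every covered value in the range checked was a whole number of reads over the median bin of 130 to 292 reads (tolerance 0.01 reads). Reads were recovered on that basis, 1961866 to 3770032 per sample. The check left out bins with the most reads, among them most bins of the retained mitochondrial stretches. Counting error within a library does not cover the spread between cultures.

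Levels of chromosomes, loci and ends were computed from these ratios with Python 3.11.15 and compared by two-sided exact permutation tests over lines with Benjamini-Hochberg adjustment. The loci formed 1 family of 5 values. Locus values of rDNA and CUP1 are relative to the sample baseline, and those of ENA and BUB3 to their chromosome. Single bins were tested with limma 3.58.1 (R 4.3.3), with empty bins set to 0.5 reads and 269 bins left out. Both tests were checked on simulated data. The members of the classes, the gene lists and the tests were chosen with earlier results of these data known. All 74 listed genes matched the gene table.

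Named items are chromosomes that passed, or were gained in a partial line or in at least 4 of 20 lines, the 5 loci, the 3 ends and 10 bins with the lowest p (1 of these bins is not reported here), every mitochondrial gene in a retained stretch, and the largest differences in each gene list. Chromosome IV, MIP1, A4 and the genes COX1, ATP6 and ATP8 fall outside this rule and were named after their values were seen. Evolved and non-evolved samples were matched by the line code in the titles. Changes of levels were taken within each line, whereas the main limma fit of the change did not use the pairing. Deviations of the samples of a line correlated at 0.00 to 0.07 over nuclear bins, with 0 of 20 lines above 0.1.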

Additional observations from a re-analysis of the deposited data

Results flagged for a closer look

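Within the 5 partial lines, 17 groups of values were examined for a sample whose gap to its nearest neighbour, divided by the range of the group, exceeded Dixon's critical value. There were 7 such groups. Chance alone marks about 1 in 20, but chromosomes I, X and XI were examined because a partial line had gained them, so their 3 marks restate that choice. B3 accounts for 5 of them. Its BUB3 locus stood at -1.29 in the evolved and at -1.46 in the non-evolved sample, with the other 4 lines near 0 in both states. Its evolved levels of chromosome I (1.29), chromosome II (0.10) and chromosome X (0.39) also stood apart from the other 4 lines. A1 accounts for the other two, with a chromosome XI level of 0.99 in the evolved sample and an rDNA level of 3.896 in the non-evolved sample.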

How the results depend on the processing

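For 14 results, 213 alternative values were computed, 28 of them under settings added after the data were seen (without D1 and D3, and without A1 and A4). Of these, 56 came from 4 settings of the rule that choose the same 5 lines and so repeat the values. Of the other 157, 142 were the same. For a difference, this means the same direction and side of the threshold. For a count of calls, it means only that the count was again 0. Leaving out 1 partial line at a time gave a BUB3 difference of 0.52 to 0.87 (past the threshold without B3), an rDNA difference of -0.54 to -0.27 (past it without C3), a difference in CUP1 change of -0.033 to 0.060 around a value of -0.0015 with all lines, and 0 to 1 called chromosomes. The called chromosome was IV, without A1 (adjusted p 0.0454) and, with 1 call again, without A1 and A4 (0.0418, exact permutation tests), at differences of 0.02 and 0.01. Within lines with BUB3 above -0.5 the difference turned to 0.05 for gains, 0.10 for CUP1, 0.024 for ENA and 0.0069 for CUP1 change, and without A1 and A4 CUP1 change was 0.056. Relative to chromosome VIII in place of the sample baseline, CUP1 differed by 0.10 and its change by 0.020. limma with trend and robust estimation called 1 bin, in NTH1. Leaving out 1 partial line at a time, the non-evolved comparison called 0 to 1 bins. The 1 call came without C3, at chromosome IV 11001 to 12000 (-1.82, adjusted p 0.0400 in limma). The adjacent bin, 12001 to 13000, held few reads in the evolved samples, at a mean of -5.98 in the partial and -5.11 in the whole lines. With the line as replicate block, 0 bins were called for the paired change, and the block changed no call. The lowest adjusted p in limma was 0.0954 with the block and 0.427 without it. With 5 partial lines, differences of the size of the bin standard error are beyond what these data can show. The causes of these changes were not tested.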
